A study of Homo sapiens with 4 samples.

Results

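The 9 genes described here write, read or erase methylation of cytosine in DNA: DNMT1, DNMT3A, DNMT3B, UHRF1, UHRF2, TET1, TET2, TET3 and MBD2. They were chosen by symbol from the table that pairs RefSeq transcripts with gene names, and the estimated counts of their transcripts were added up per gene and library, which gave values for 9 of 9 members among 15220 genes. PANC-1 is a cell line from a human pancreatic ductal adenocarcinoma, labelled "Wild type" and measured here in 2 libraries. PZT-2, with 2 libraries, is a clone of PANC-1 that carries lentiviral shRNAs driven by a U6 promoter against H2A.Z.1 (gene H2AFZ) and against both isoforms of H2A.Z.2 (gene H2AFV). Both were grown in the same DMEM medium with serum, at passages 12 to 13. The knockdown is represented by 1 clone and the control by untransduced parental cells, so effects of the shRNAs, of transduction and of picking a clone cannot be told apart. The study calls the libraries of a line biological replicates, but the labels do not say whether they came from separate cultures, so the p values below measure the spread between these libraries, which may be technical.

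DNA methylation in mammals is laid down on cytosines that precede a guanine (CpG). DNMT3A and DNMT3B methylate unmethylated DNA, whereas DNMT1, brought to newly replicated DNA by UHRF1, copies the pattern of the old strand onto the new one. The TET enzymes oxidize 5-methylcytosine, which starts its removal, and MBD2 binds methylated CpG and brings in the NuRD co-repressor complex. The histone variant H2A.Z and DNA methylation are known to occupy largely separate stretches of the genome. The comparison sets the genes of the methylation machinery side by side in cells with and without the knockdown of H2A.Z.

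Both targeted genes were lower in PZT-2, H2AFZ by far more than H2AFV. H2AFZ had normalized counts of 6389 and 6034 in PANC-1 against 2212 and 2259 (log2 fold change -1.47, adjusted p = 6.25e-05 in edgeR), and H2AFV had 3343 and 3452 against 2590 and 2719 (log2 fold change -0.36, adjusted p = 0.00573 in edgeR). Normalized counts are counts scaled to a library of mean size, every log2 fold change is PZT-2 against PANC-1, and adjusted p values come from edgeR's quasi-likelihood test over 15100 genes with a threshold of 0.05. Without PZT-2 replicate 1 the adjusted p of H2AFV was 0.0672. For the most abundant H2AFV transcript alone the adjusted p was 0.0687 in edgeR. The median absolute log2 fold change of all tested genes was 0.279, not far below that of H2AFV. The libraries held 12861388 to 15717448 counts. The epithelial markers KRT7, KRT8, KRT18, KRT19 and EPCAM were all detected, with summed normalized counts of 85552 to 86600 in PANC-1 and 44354 to 45161 in PZT-2. KRT8, KRT18 and KRT19 were lower in PZT-2. Of the other marker lists, acinar and islet genes had no value in any library, and PTPRC and CD3E of leukocytes, VWF and CDH5 of endothelium and COL1A2, DCN and LUM of fibroblasts had none either. COL1A1 had 494 and 531 normalized counts in PANC-1 and 170 and 135 in PZT-2, CD68 was detected in all 4 libraries, PECAM1 had summed counts of 4.03 to 12.4, and HBA1 had 6.75 and 9.04 in PANC-1 and 0 in both PZT-2 libraries.

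Of the 9 members, DNMT3A rose in PZT-2 and DNMT1 and TET2 fell, whereas DNMT3B, UHRF1, UHRF2, TET1, TET3 and MBD2 did not pass the test. DNMT3A was 2.16-fold higher in PZT-2, DNMT1 was 1.33-fold higher in PANC-1, and TET2 was 1.89-fold higher in PANC-1. The members called made up 33.3% of the list, 1 higher and 2 lower, near the 28.4% of all tested genes that passed, of which 14.7% of the tested genes were higher and 13.7% lower. The libraries of the 2 lines did not overlap for 6 of the 9 members, against 66.3% of all tested genes. Their median log2 fold change was 0.01, and that of all tested genes was 0.00118.

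**Figure D1:**
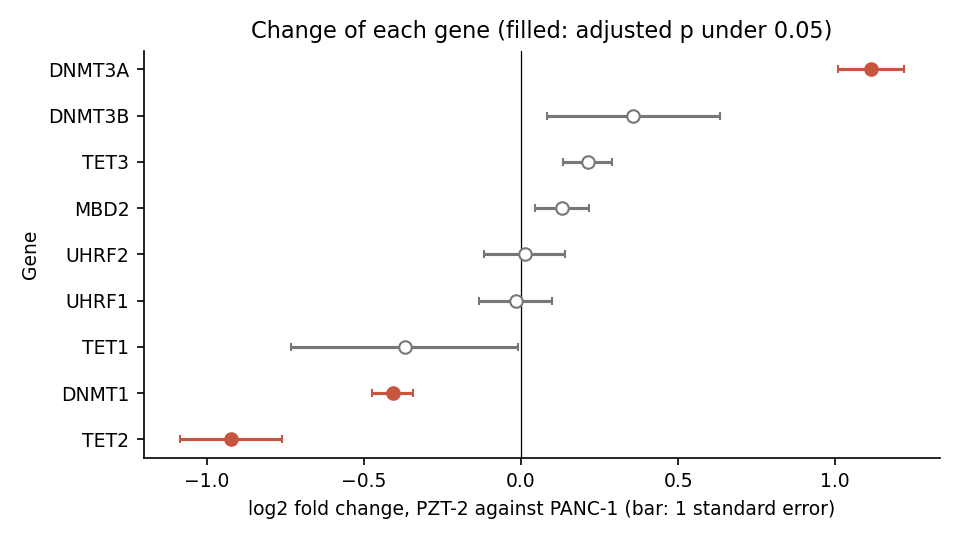
Log2 fold change of each of the 9 genes in PZT-2 against PANC-1 on the horizontal axis, with 1 standard error as a bar and filled points for genes with an adjusted p under 0.05. DNMT3A lies at 1.11, DNMT1 at -0.41 and TET2 at -0.92, and the other 6 points are open.

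Per length, DNMT1 was the most abundant member and TET1 the least. Levels between genes are given in TPM (counts divided by effective length and scaled to the same total in every library), computed from the counts. DNMT1 stood at 92.7 and 105 TPM in PANC-1 and at 78.5 and 76.2 TPM in PZT-2. UHRF1 came next with 36.0 and 47.8 TPM in PANC-1 and 42.2 and 44.0 TPM in PZT-2. In PANC-1 the order then ran MBD2, DNMT3A, UHRF2, TET3, DNMT3B, TET2 and TET1, and the libraries of DNMT3A (8.47 and 10.7 TPM) and UHRF2 (7.64 and 9.62 TPM) overlapped, the only neighbours in that order that did. In PZT-2 no neighbours overlapped, and DNMT3A, at 20.8 and 19.9 TPM, stood above MBD2 at 15.3 and 16.9 TPM. TET1 was listed at 0.293 and 0.254 TPM in PANC-1 and at 0.222 and 0.216 TPM in PZT-2.

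**Figure D2:**
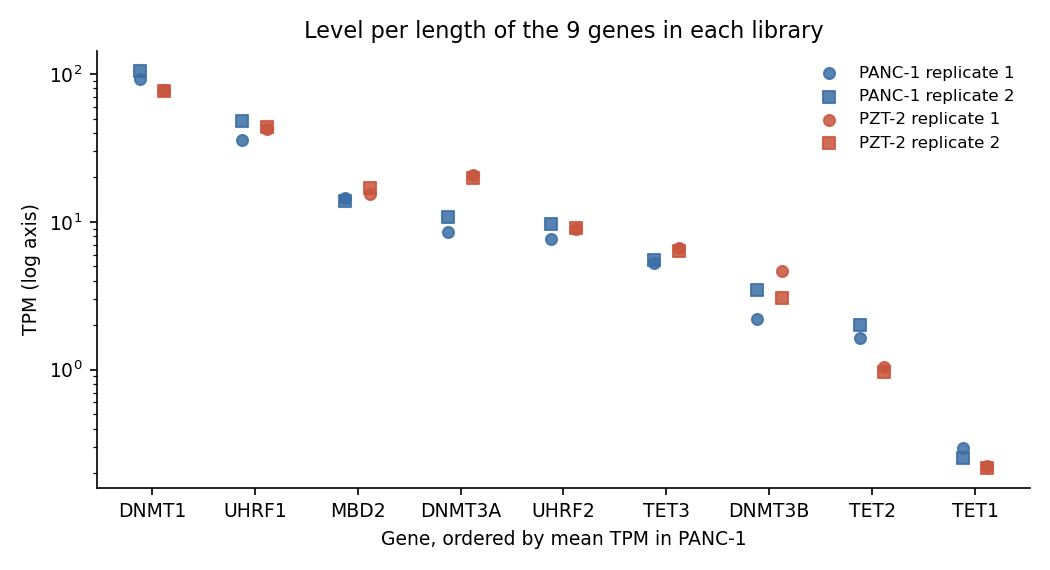
Level per length of each gene in TPM on a log axis, with genes ordered by their mean in PANC-1, blue points for PANC-1 and red points for PZT-2, circles for replicate 1 and squares for replicate 2. DNMT1 lies highest, at 76.2 to 105 TPM, TET1 lies lowest, at 0.216 to 0.293 TPM, and DNMT3A lies below MBD2 in PANC-1 and above it in PZT-2.

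The summed levels of the DNMT genes and of the TET genes overlapped between the lines. The share of every DNMT and TET gene in its sum did not overlap, also for genes that were not called. The summed level of the 3 DNMT genes was 103 and 119.6 TPM in PANC-1 and 104 and 99.2 TPM in PZT-2. DNMT3A made up 8.20% and 8.95% of that sum in PANC-1 and 19.98% and 20.04% in PZT-2. Correspondingly, there was 10.4 ± 0.771 (SD, n = 2) times as much DNMT1 as DNMT3A in PANC-1 and 3.81 ± 0.0392 (SD, n = 2) times as much in PZT-2. The summed level of the TET genes was 7.22 and 7.76 TPM in PANC-1 and 7.90 and 7.51 TPM in PZT-2. TET3 made up 73.1% and 70.9% of it in PANC-1 and 83.99% and 84.26% in PZT-2, and TET2 fell from 22.9% and 25.8% to 13.2% and 12.9%. The smallest p that an exact permutation test (two-sided) can give for such a ratio with these 4 libraries is 0.333, so these shares are given as values.

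The de novo methyltransferase DNMT3A showed the largest change among the members. It had normalized counts of 239.7 and 285 in PANC-1 and 569 and 569.6 in PZT-2, that is 262 ± 31.8 (SD, n = 2) against 569 ± 0.663 (SD, n = 2). Both PZT-2 libraries thus lay far above both PANC-1 libraries, and they differed from each other by less than 1 count on this scale. The log2 fold change was 1.11 (standard error 0.105, adjusted p = 0.000975), and the gene passed in all 16 settings run for it, with adjusted p values from 8.79e-09 to 0.0259. In absolute log2 fold change it exceeded 92.4% of the tested genes.

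DNMT3A is transcribed from a distal group of starts and from an internal start. The distal starts give RNAs for the full-length protein (NM_022552 and NM_175629, 912 codons each in their GENCODE 29 counterparts). They also give other RNAs, among them NM_001320892, whose counterpart has 166 codons. The internal start gives the RNA for a shorter form that lacks the amino-terminal part (NM_153759, 723 codons). The starts of NM_022552 and NM_153759 lie 89610 bases apart on the minus strand of chromosome 2. Shown are the 250 bases before each of these starts, from RefSeq promoter windows on GRCh38.p14, with each CpG, the target of the encoded enzymes, in capitals. The first, chr2:25341926-25342175, lies before the first exon of NM_022552 and holds 33 CpG, and the second, chr2:25252316-25252565, lies in an intron of NM_022552 just before the first exon of NM_153759 and holds 25. Neither stretch touches an exon of any matched DNMT3A transcript.
Before the start of NM_022552: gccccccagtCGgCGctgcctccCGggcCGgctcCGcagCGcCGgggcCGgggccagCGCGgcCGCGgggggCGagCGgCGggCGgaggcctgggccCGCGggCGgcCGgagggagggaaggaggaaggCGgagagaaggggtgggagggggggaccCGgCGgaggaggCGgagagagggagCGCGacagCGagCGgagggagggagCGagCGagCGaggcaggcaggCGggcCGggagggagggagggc
Before the start of NM_153759: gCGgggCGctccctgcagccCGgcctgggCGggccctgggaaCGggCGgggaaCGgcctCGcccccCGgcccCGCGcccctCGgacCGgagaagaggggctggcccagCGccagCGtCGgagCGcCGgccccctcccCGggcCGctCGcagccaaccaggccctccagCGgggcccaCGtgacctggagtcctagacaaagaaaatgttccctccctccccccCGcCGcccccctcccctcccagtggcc
Over the 300 bases that the windows cover (250 before the start and 50 after), the counts were 46 and 28 CpG, more than in 97.1% and 73.8% of 35116 RefSeq windows of that length, whose median is 14.

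Within DNMT3A, the counts rose on the RNAs of the distal starts. NM_022552 had normalized counts of 47.3 and 100.3 in PANC-1 and 359 and 367 in PZT-2, which was 28.1% of the gene in PANC-1 and 63.8% in PZT-2. NM_153759 had 60.8 and 132 in PANC-1 and 100.7 and 90.0 in PZT-2, and NM_001320893, whose counterpart shares the internal start, had 74.3 and 31.6 against 41.3 and 26.7. The PANC-1 libraries of these RNAs differed from each other by more than their sums did, so transcripts that share a start were also added up, a step chosen after the transcript values were seen. All RNAs of the distal starts (NM_022552, NM_175629, NM_001320892 and NR_135490) had 104.6 and 121 normalized counts in PANC-1 against 427 and 453, and the log2 fold change was 1.95 with a standard error of 0.117 (adjusted p = 0.000243 in edgeR). Of these, the full-length RNAs NM_022552 and NM_175629 together had 91.1 and 100.3 against 385 and 406 (log2 fold change 2.04, adjusted p = 0.000211 in edgeR). The 2 RNAs of the internal start had 135 and 164 against 142 and 117, with overlapping libraries (log2 fold change -0.21, standard error 0.167, adjusted p = 0.393 in edgeR). All DNMT3A counts outside NM_022552 came to 192 and 184 in PANC-1 and 209 and 203 in PZT-2 (0.13 on the log2 scale, adjusted p = 0.434 in edgeR).

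The difference in change between the starts was tested as well. In edgeR's test of relative transcript use over the transcripts of all genes, in which 0.0678% of 22129 passed, the distal starts of DNMT3A had a relative log2 fold change of 0.58 (adjusted p = 0.928), so the shift between starts did not pass over the whole table. The distal sum was called in all 8 settings run for it and the internal sum in none of them. These calls are no test of a difference between the starts, because the sums were chosen after the values were seen and each was tested alone. The distal share of the gene's counts was 43.7% and 42.5% in PANC-1 and 75.0% and 79.5% in PZT-2. How kallisto divided reads that fit several RNAs of the gene enters these shares and not the sum over the gene.

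**Figure D3:**
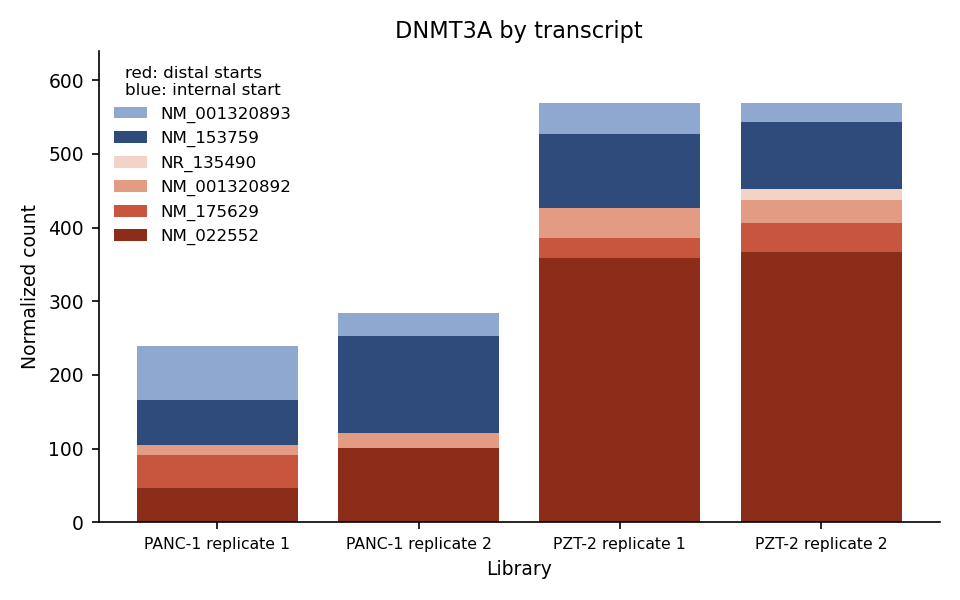
Normalized counts of the 6 DNMT3A transcripts in each library, stacked from 0, in reds for the distal starts and in blues for the internal start. The red part grows from 104.6 and 121 in PANC-1 to 427 and 453 in PZT-2, while the blue part stays between 117 and 164.

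Of the 10 tested genes on each side of DNMT3A in RefSeq order, 11 were called higher and 1 lower, against 14.7% of all tested genes called higher and 13.7% lower. The median log2 fold change of these 20 genes was 0.46, against 0.12 for the 957 placed genes of chromosome 2 and 0.00134 for all placed genes. Its nearest neighbours were EFR3B, which helps hold a lipid kinase at the plasma membrane, at 2.01 (adjusted p = 0.000776 in edgeR) and DTNB, a dystrobrevin, at 0.65 (adjusted p = 0.00251 in edgeR). ADCY3, an adenylyl cyclase, stood at 1.03 (adjusted p = 0.000336 in edgeR) and the fatty acid oxidation genes HADHA and HADHB at 0.54 and 0.42 (adjusted p = 0.00182 and 0.0065 in edgeR). These 5 neighbours were named after their values were seen. Of the 20 neighbours, 2 had a larger log2 fold change than DNMT3A. The part of this stretch of chromosome 2 in the change of DNMT3A was not tested. For DNMT1 on chromosome 19, 5 of the 20 neighbours were called lower and 3 higher, with a median of -0.16 against -0.05 for the chromosome, and for TET2 on chromosome 4, 2 were called in each direction, with a median of -0.11 against -0.01. All 20 neighbours of TET2 had a higher log2 fold change than TET2. The median of the neighbours was 0.24 for TET3, also on chromosome 2, and between -0.19 and 0.02 for DNMT3B, UHRF1, UHRF2, TET1 and MBD2.

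The 3 genes whose values over the 4 libraries lay nearest to those of DNMT3A, by Euclidean distance of centred log2 values, were FHOD1, EIF4A2 and GPR153. FHOD1, an actin-binding formin on chromosome 16, had 201 and 234 normalized counts in PANC-1 and 483 and 485 in PZT-2, at a distance of 0.0388. The search covered 10052 genes whose normalized counts averaged 100 or more. EIF4A2, an RNA helicase of translation initiation on chromosome 3, lay at a distance of 0.0627, and GPR153, an orphan receptor on chromosome 1, at 0.0759. None of the 3 lies on chromosome 2, that of DNMT3A, which holds 957 of the 15049 placed genes.

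The other de novo enzyme, DNMT3B, varied between replicates. It had normalized counts of 72.0 and 110.2 in PANC-1 and 142 and 93.9 in PZT-2, so the groups overlapped (log2 fold change 0.36, standard error 0.275, adjusted p = 0.387 in edgeR). The gene had 64 to 141 counts per library. The counts fell on the transcripts NM_175849 and NM_175848, and 4 other DNMT3B transcripts of the name table carried no value. NM_175849 encodes a form that lacks 63 codons of NM_175848 (770 against 833 codons), within the catalytic part of the protein. The exons concerned, chr20:32805338-32805407 and chr20:32806209-32806327 on the plus strand of GRCh38, together hold 189 coding bases. They are shown from GENCODE 29 with CpG in capitals because their presence separates the DNMT3B RNAs that were measured.
First exon that NM_175849 lacks: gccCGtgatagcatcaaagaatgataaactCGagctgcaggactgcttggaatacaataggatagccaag
Second exon that NM_175849 lacks: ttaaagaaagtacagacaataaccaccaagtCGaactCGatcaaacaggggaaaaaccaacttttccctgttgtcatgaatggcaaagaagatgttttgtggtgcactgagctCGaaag
NM_175849 had 51.8 and 70.5 normalized counts in PANC-1 and 114 and 93.9 in PZT-2, and NM_175848 had 20.3 and 39.8 against 28.2 and 0. Most DNMT3B counts thus fell on the RNA without these exons, 71.9% and 63.9% in PANC-1 and 80.1% and 100% in PZT-2. In the edgeR fit over single transcripts NM_175849 did not pass (adjusted p = 0.378). Added to the gene table after its values were seen, NM_175849 rose by 0.75 on the log2 scale (adjusted p = 0.0435 in edgeR). It no longer passed in DESeq2 (adjusted p = 0.153) or with a block for the replicate number (adjusted p = 0.075). Its adjusted p in edgeR was 0.107 when replicate 1 of PANC-1 was left out, and 0.209 and 0.0968 when replicates 1 and 2 of PZT-2 were.

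The maintenance methyltransferase DNMT1 was lower in PZT-2. It had normalized counts of 3956 and 4371 in PANC-1 and 3185 and 3097 in PZT-2, and every PZT-2 library lay below both PANC-1 libraries. The log2 fold change was -0.41 (standard error 0.0655, adjusted p = 0.00589 in edgeR). Without PZT-2 replicate 2 the adjusted p was 0.0654, and for its most abundant transcript alone it was 0.478. The reads were divided among 4 transcripts in different ways in replicates of the same line: NM_001318731 had 10.1 and 415 normalized counts in PANC-1 and 98.6 and 366 in PZT-2. NM_001379, with the largest share, had 1245 and 2085 against 1334 and 1379, and NM_001130823 had 1284 and 831 against 1303 and 682. NM_001318730 was lower in both PZT-2 libraries, with 1418 and 1040 in PANC-1 and 449 and 670.5 in PZT-2 (-1.14 on the log2 scale, adjusted p = 0.154 in edgeR).

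UHRF1, the partner that brings DNMT1 to replicated DNA, did not differ between the lines beyond the spread of the libraries. It had normalized counts of 1135 and 1456 in PANC-1 and 1255 and 1312 in PZT-2, and the PZT-2 libraries lay between those of PANC-1 (log2 fold change -0.02, standard error 0.116, adjusted p = 0.935 in edgeR). As DNMT1 fell, the ratio of UHRF1 to DNMT1 in TPM went from 0.389 and 0.453 to 0.537 and 0.578, without overlap. Its paralog UHRF2 had 216 and 265 normalized counts in PANC-1 and 242 and 245 in PZT-2 (0.01 on the log2 scale, standard error 0.129, adjusted p = 0.959 in edgeR). For UHRF1 and UHRF2 the sign of the difference changed between settings. Per length, UHRF1 was 4.69 to 4.97 times as abundant as UHRF2 in the 4 libraries.

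Within UHRF1, 1 transcript was higher in PZT-2. NM_001290051 had 161 and 169 normalized counts in PANC-1 and 344 and 270.0 in PZT-2, and it made up 14.2% and 11.6% of the gene in PANC-1 and 27.4% and 20.6% in PZT-2. The lines did not overlap. In the edgeR fit over single transcripts NM_001290051 did not pass (standard error 0.181, adjusted p = 0.128). Added to the gene table after its values were seen, it rose by 0.89 on the log2 scale (standard error 0.147, adjusted p = 0.00628 in edgeR) and passed in all 8 settings run for it. The other UHRF1 transcripts together had 974 and 1287 against 911 and 1042, with overlapping libraries (log2 fold change -0.22, adjusted p = 0.297 in edgeR). Without PANC-1 replicate 1 these others were called lower (-0.40 on the log2 scale, adjusted p = 0.0101 in edgeR). Relative to the rest of the gene, NM_001290051 did not pass over the transcripts of all genes (relative log2 fold change 0.63, adjusted p = 1 in edgeR).

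The start of NM_001290051 lies 643 bases downstream of that of NM_001048201, the RNA with the largest share, on the plus strand of chromosome 19. Both encode 793 codons, so the RNAs differ in their first exon and not in the length of the protein. The 250 bases before each start are shown from RefSeq on GRCh38.p14, chr19:4909251-4909500 and chr19:4909894-4910143, because UHRF1 and DNMT1 were the members whose windows held E2F-type stretches. In capitals are CCAAT and, of the E2F forms, TTTCCCGC in the first and TTTCGCGC in the second, each on either strand.
Before the start of NM_001048201: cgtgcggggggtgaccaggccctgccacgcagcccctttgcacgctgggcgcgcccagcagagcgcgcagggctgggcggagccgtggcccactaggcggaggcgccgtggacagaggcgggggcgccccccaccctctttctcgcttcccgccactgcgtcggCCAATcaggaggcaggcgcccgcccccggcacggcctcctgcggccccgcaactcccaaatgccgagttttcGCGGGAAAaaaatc
Before the start of NM_001290051: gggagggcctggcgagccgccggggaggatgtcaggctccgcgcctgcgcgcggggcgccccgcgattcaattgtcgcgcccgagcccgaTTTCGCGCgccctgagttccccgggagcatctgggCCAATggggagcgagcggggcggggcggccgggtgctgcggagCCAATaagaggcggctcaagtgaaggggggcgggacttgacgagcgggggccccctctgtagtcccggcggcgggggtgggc
The same search, for TTTGGCGC, TTTCCCGC, TTTCGCGC and TTTGCCGC on both strands of the 300-base windows, found a form in 3 of the 20 windows of the 9 members, in 2 of the 3 UHRF1 windows and in the window of DNMT1, against 3.31% of 35116 windows. The window of DNMT3B lies at the start of NM_175850, which had no value. That is 17428 bases from the start of the measured DNMT3B RNAs, so their promoter was not searched. Other matched starts also lay outside the windows. The nearest window start was 1494 bases away for NM_001287491 of TET3 and 319 for NM_030625 of TET1. For NM_001290050 of UHRF1 it was 6421 bases away. The promoters at these starts were not searched either. E2F factors are known activators of genes used in DNA synthesis. The stretch of DNMT1, chr19:10194938-10194965 on the minus strand, spans its RefSeq start. The matched starts of the measured DNMT1 RNAs lie 126 or 182 bases upstream of that RefSeq start. All 28 bases of the stretch lie in exons of matched DNMT1 transcripts, so the E2F form lies within these RNAs and not before their starts.
Around the start of DNMT1, with the E2F form in capitals: atcggtttccGCGCGAAAagccggggcg
CCAAT was held by 34.6% of all windows, TTTCCCGC by 1.63% and TTTCGCGC by 0.515%. These are matches of letters and no evidence of binding.

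Over single transcripts, none of the members' RNAs passed. Of 30 transcripts with a member's symbol, 23 had values and 22 were tested, and edgeR called 0 of them at an adjusted p of 0.05, where it called 0.149% of all 30301 transcripts tested. At an unadjusted p under 0.05 there were 4. DESeq2 called 4, 2 higher (NM_022552 of DNMT3A and NM_001290051 of UHRF1) and 2 lower (NM_001318730 of DNMT1 and NM_001127208 of TET2), against 14.4% of all transcripts.

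The TET enzymes differed among themselves. TET2 had normalized counts of 128 and 151 in PANC-1 and 76.5 and 71.2 in PZT-2, and both PZT-2 libraries lay well below both PANC-1 libraries. The log2 fold change was -0.92 (standard error 0.162, adjusted p = 0.00812 in edgeR). Without PZT-2 replicate 2 the adjusted p was 0.0654, with length-scaled counts it was 0.0792, and with limma-trend on log2(TPM + 0.1) it was 0.0655. The gene had 72 to 167 counts per library. NM_001127208, the RNA for the form with the catalytic domain (2002 codons), had 114 and 124 normalized counts in PANC-1 and 63.4 and 57.4 in PZT-2. NM_017628, for a form of 1165 codons without it, had 14.6 and 27.1 against 13.1 and 13.8. In the edgeR fit over single transcripts NM_001127208 did not pass (adjusted p = 0.182). Added to the gene table, the catalytic form fell by 0.98 on the log2 scale (adjusted p = 0.00723 in edgeR, 0.0612 without PZT-2 replicate 2), and the short form had -0.64 (adjusted p = 0.331 in edgeR).

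TET3, the most abundant TET gene in both lines, had 482 and 489 normalized counts in PANC-1 and 574 and 551 in PZT-2. All PZT-2 libraries lay above those of PANC-1, by 0.21 on the log2 scale (standard error 0.0767), which did not pass (adjusted p = 0.0857 in edgeR) and did not pass in any of the 16 settings. TET1 had 16 to 21 counts per library, and its libraries did not overlap between the lines. Its difference of -0.37 on the log2 scale was about as large as its standard error of 0.361 and did not pass (adjusted p = 0.497 in edgeR). The difference between the TET genes was not tested beyond these values.

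MBD2, the reader, had 591 and 553 normalized counts in PANC-1 and 594 and 658 in PZT-2. The libraries did not overlap, but PANC-1 replicate 1 and PZT-2 replicate 1 stood side by side (log2 fold change 0.13, standard error 0.0864, adjusted p = 0.310 in edgeR). The pathway lists below are read against the 14.7% of all tested genes called higher and the 13.7% called lower. Of the other methyl-CpG binding proteins, 3 of 9 fell, among them MBD3 and ZBTB33, and 2 rose (MBD1 and ZBTB4), with a list median of -0.04 on the log2 scale. MBD3, the paralog that takes the place of MBD2 in NuRD, had 2739 and 2704 normalized counts in PANC-1 and 1909 and 1802 in PZT-2 (-0.55 on the log2 scale, adjusted p = 0.00145 in edgeR). ZBTB33, a zinc finger protein that binds methylated sites, fell by 0.44 on the log2 scale, and ZBTB4, another zinc finger reader, rose by 0.40. MBD1 rose by 0.34.

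Of 13 NuRD genes, 4 rose and 2 fell, with a median of 0.09. CHD4, the remodelling ATPase of the complex, had 2321 and 2601 normalized counts in PANC-1 and 3508 and 3443 in PZT-2 (0.50 on the log2 scale, adjusted p = 0.00361 in edgeR). MTA1, a scaffold subunit, rose by 0.30, and CDK2AP1, a small subunit, fell by 0.30 on the log2 scale. The fall of MBD3 thus stood beside a rise of CHD4. With either PZT-2 library left out, the NuRD calls were 1 higher and 1 lower.

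Among 10 partners of maintenance methylation, 2 rose and 1 fell, with a median of -0.07. USP7, the deubiquitinase that protects UHRF1 and DNMT1, had 2011 and 2190 normalized counts in PANC-1 and 3040 and 2964 in PZT-2 (0.51 on the log2 scale, adjusted p = 0.0024 in edgeR). EHMT2, a histone methyltransferase, rose by 0.37. PCLAF, a PCNA partner whose ubiquitinated form recruits DNMT1, fell by 0.43 on the log2 scale. Among 8 partners of de novo methylation, DNMT3L and ZFP57 had no value, and of the 6 tested, 2 fell and 0 rose in edgeR, also at an unadjusted p under 0.05 and in DESeq2. QSER1, which keeps DNA methylation away from regulatory regions, fell by 0.48 (adjusted p = 0.0339 in edgeR) and TRIM28, a co-repressor, by 0.18 on the log2 scale. Neither QSER1 nor TRIM28 passed without PZT-2 replicate 2 (adjusted p = 0.176 and 0.1601 in edgeR).

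Of 13 tested genes that remove oxidized bases or act with TET enzymes, 3 fell and 1 rose, with a median of -0.12. OGT, the glycosyltransferase that binds TET proteins, had 2761 and 2696 normalized counts in PANC-1 and 1989 and 1990 in PZT-2 (-0.46 on the log2 scale, adjusted p = 0.00214 in edgeR). APEX1, an endonuclease of base excision repair, fell by 0.45 on the log2 scale. GADD45A, a stress protein that has been tied to demethylation, had 646 and 509.7 against 1016 and 1163 (log2 fold change 0.92, adjusted p = 0.00336 in edgeR). TDG, the glycosylase that excises oxidized bases, did not pass (log2 fold change 0.28, adjusted p = 0.213 in edgeR).

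IDH1, the cytosolic source of the 2-oxoglutarate that TET enzymes consume, had 801 and 786 normalized counts in PANC-1 and 439 and 469.7 in PZT-2 (-0.80 on the log2 scale, adjusted p = 0.000994 in edgeR). It and IDH3G, at -0.34, were the called genes of 7, with a median of -0.15, and 0 rose in edgeR, at an unadjusted p under 0.05 or in DESeq2. Without PANC-1 replicate 2, IDH3A, a subunit of the mitochondrial enzyme, was called higher (0.51 on the log2 scale, adjusted p = 0.00727 in edgeR). In the methyl donor cycle, which makes S-adenosylmethionine for the DNMT enzymes, 5 of 13 tested genes fell and 0 rose in edgeR, 1 rose at an unadjusted p under 0.05 and 0 in DESeq2. The list median was -0.14. AHCY, which clears the inhibitory product of methyl transfer, had 4131 and 4029 normalized counts in PANC-1 and 3098 and 3116 in PZT-2 (-0.39 on the log2 scale, adjusted p = 0.00292 in edgeR). MTHFD1, of the folate cycle, fell by 0.32 on the log2 scale. Without PZT-2 replicate 1 or 2, the count of called genes in the methyl donor list was 1 and 2.

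**Figure D4:**
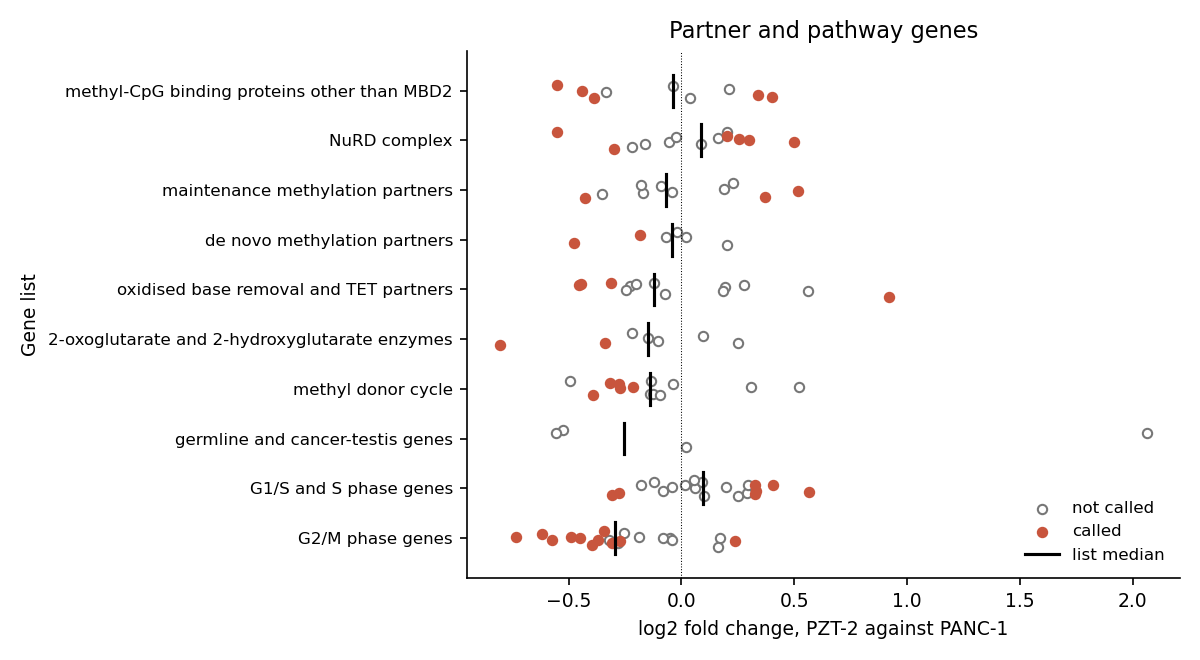
Log2 fold change in PZT-2 against PANC-1 of the tested genes of each of the 10 lists, with filled points for an adjusted p under 0.05 and a vertical bar for the list median. The called genes of the methyl donor cycle all lie below 0, those of the NuRD complex lie on both sides, and with all 4 libraries no germline gene is called.

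The calls in these lists changed with the libraries used. Over the 10 lists, where 45 calls were made, there were 20 when PZT-2 replicate 1 was left out and 14 when replicate 2 was. MBD3, CHD4, USP7, APEX1, OGT, GADD45A, IDH1, AHCY and TOP2A passed with any library left out. MBD1, ZBTB33, MTA1, CDK2AP1, EHMT2, TRIM28, IDH3G, MTHFD1, MCM5, MCM7, CCNE1 and NUSAP1 did not pass when either was left out (adjusted p = 0.0607 to 0.215 in edgeR), and ZBTB4, PCLAF, QSER1, CDC6 and CENPE did not pass without PZT-2 replicate 2. MBD1 and QSER1 did not pass without PANC-1 replicate 2 either (adjusted p = 0.0507 and 0.0669 in edgeR), nor did CCNE1 and NUSAP1 without PANC-1 replicate 1 (adjusted p = 0.0884 and 0.0889 in edgeR). The partners of maintenance methylation called lower numbered 4 in place of 1 without PANC-1 replicate 1, with PCNA, HELLS and CDCA7 added. In the list of oxidized base removal, 2 genes in place of 1 were called higher without PANC-1 replicate 2, with PARP1 added.

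Germline and cancer-testis genes, many of which are silenced by DNA methylation in other tissues, stayed close to undetected. Of 30 listed, 26 had no value, and the other 4 (STK31, PIWIL2, MAGEA10 and CTCFL) had summed normalized counts of 20.3 and 18.98 in PANC-1 and 20.1 and 25.7 in PZT-2. With all 4 libraries none of them was called by edgeR or DESeq2, and 0 had an unadjusted p under 0.05. PIWIL2, an Argonaute protein of the germline, had 4.50 and 0 normalized counts in PANC-1 and 10.1 and 7.91 in PZT-2, and it passed as higher when PANC-1 replicate 1 was left out (adjusted p = 0.0167 in edgeR), against a lone PANC-1 library at 0. The table does not say whether a transcript with no value was left out by a filter or had no reads, so these genes are given as without a value.

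Several members, DNMT1 and UHRF1 among them, are known to follow the cell cycle, and cell cycle lists are therefore given beside them. Of 20 G2/M genes, 10 fell and 1 rose, where 28.4% of all tested genes passed, with a median of -0.29, and their summed normalized counts were 49460 and 52811 in PANC-1 and 41756 and 40489 in PZT-2. TOP2A, the topoisomerase of condensing chromosomes, fell by 0.73 and CENPE, a kinetochore motor, by 0.62 on the log2 scale, and NUSAP1, a spindle protein, rose by 0.24. Of 20 genes of G1/S and S phase, 5 rose and 2 fell, with a median of 0.10, and their summed normalized counts were 42941 and 47247 in PANC-1 and 48256 and 49442 in PZT-2, without overlap. CDC6, which loads the replicative helicase, rose by 0.56 and CCNE1, a G1 cyclin, by 0.40, and the helicase subunits MCM5 and MCM7 fell by 0.28 and 0.31 on the log2 scale. The G2/M genes called lower numbered 6 when PZT-2 replicate 1 was left out and 4 when replicate 2 was, and in the S phase list 1 gene and 0 genes were then called. In that list, 9 genes were called higher without PANC-1 replicate 2 and 4 lower without PANC-1 replicate 1. The part of the cell cycle in the difference of DNMT1 was not tested.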

How the data were processed

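Values of 4 RNA-seq libraries, 2 of PANC-1 and 2 of PZT-2, were used. Poly(A) RNA had been made into stranded TruSeq libraries and sequenced as pairs of 76 bases (NextSeq 500). According to the submitters' processing notes and the methods, the authors used Trim Galore 0.4.1, kallisto 0.43.0 on RefSeq transcripts, and sleuth 0.29.0; the notes name the build hg19. The estimated counts, as deposited, had been multiplied by a factor in each library (0.935 to 1.16), which was undone before they were rounded and summed per gene. The deposited table of the comparison also holds effects, p and q values of sleuth, which were not used. TPM were computed from the recovered counts and the deposited effective lengths, because the TPM column also carries a scaling. No column of sample values was left out. Transcripts without a symbol (3925) were named through RefSeq, and 103, with 0.0466% of the counts, stayed unnamed.

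Genes that reached 5 counts in 2 or more libraries were tested with edgeR 4.0.16 (TMM, quasi-likelihood, Benjamini-Hochberg over all genes) in R 4.3.3. The script was tested on simulated data. The total count of 12861388 to 15717448 per library sets the precision, and errors are SD over 2 libraries. Alternatives were RLE factors, DESeq2 1.42.0, edgeR's version 4 estimate, other filters, counts as deposited, limma-trend (limma 3.58.1) on log2(TPM + 1) and log2(TPM + 0.1), 1 transcript per gene, length-scaled counts, a replicate block and each library left out. Sums of part of a gene's transcripts and the test of relative use were added after values were seen. Members and lists were chosen with earlier results of these data known.

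Named are all members, transcripts with at least 10% of a gene's counts in either line, from each list the 2 called genes that changed most each way (mean normalized count at least 100), the 3 genes nearest to DNMT3A, H2AFZ and H2AFV. Results for some genes of the lists are not reported here. Other genes, among them TDG, NM_001318731, the neighbours of DNMT3A, the germline genes, IDH3A, PCNA, HELLS, CDCA7 and PARP1, were named after their values were seen. Promoter windows and gene order are from RefSeq on GRCh38.p14 and coding lengths from GENCODE 29, neither of which is the authors' index. All 9 members had a window (for DNMT3B only that of NM_175850, which had no value). For TET1 and TET3 no window reached the matched start of the measured RNA. By accession, 30 of 30 member transcripts had a GENCODE counterpart.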

Additional observations from a re-analysis of the deposited data

How the results depend on the processing

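DNMT3A was called in every setting listed above. The count of members called, 3, was 1 without PZT-2 replicate 2 and 3 without each other library, and 2 or 3 in the other settings. The count of genes called over the table, 4292, was 2124 for the most abundant transcript of each gene alone and ran from 1750 to 4501 with each library left out in turn, and the count of called list genes, 45, ran from 14 to 54. The cause of the lower counts without a PZT-2 library was not tested. Of the members' transcripts DESeq2 called 4 where edgeR called 0. The log2 fold change of UHRF1 was 0.0532 with limma-trend at a pseudocount of 1 and 0.0546 at 0.1, and -0.18 to 0.17 with each library left out; that of UHRF2 was -0.0703 for the most abundant transcript alone and -0.12 to 0.16 with each library left out. The cause was not tested. No RefSeq transcript without a symbol belonged to a member, so adding such transcripts gave no other value. TET1 had no value with length-scaled counts, where it did not pass the filter.

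Same-numbered libraries showed no shared shift: their deviations from the group means had a correlation of -0.03 over 10052 genes. This value cannot tell whether same-numbered libraries were prepared together. With the replicate block 3710 genes and 3 members were called, and of the named genes QSER1 and NUSAP1 no longer passed (adjusted p = 0.0595 and 0.0667 in edgeR). DNMT3B had 64 to 141 and TET1 16 to 21 counts per library.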
